A study of Mus musculus with 9 samples.

Results

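The immediate early genes described here were 10 transcripts, Fos, Fosb, Jun, Junb, Egr1, Egr2, Egr3, Ier2, Atf3 and Btg2, of 32287 gene IDs in the single-cell matrix. They were chosen as a named list of immediate early and stress-response regulators that also react to tissue dissociation, and all 10 were found. Cells came from TiCY mice, in which tamoxifen activates Cre under the Tlx (Nr2e1) promoter and switches on the eYFP reporter in neural stem cells (NSCs) and, by inheritance, their progeny. All 4 groups carried these transgenes and received tamoxifen. WT young mice were 16 weeks old (tamoxifen at 10 weeks, chase of 6 weeks) and WT old mice 80 weeks (tamoxifen at 71, chase of 9). IFNAGR KO mice, which lack the type-I receptor gene Ifnar1 and the type-II receptor gene Ifngr1, were 16 weeks (tamoxifen at 7, chase of 9) or 92 to 105 weeks old. The labels give these ages of the KO old mice, while the methods give tamoxifen at 85 and 98 weeks and a chase of 9 weeks, which do not add up to them exactly. From the ventricular-subventricular zone (vSVZ), eYFP+ and GLAST+ cells were sorted. From the rest of brain (RoB), a pool of olfactory bulb, rostral migratory stream and striatum, eYFP+ and eYFP-/PSANCAM low cells were sorted. CD45+, Ter119+ and O4+ cells were gated out in both. The cells of 2 mice per group were pooled into 1 droplet reaction and told apart by antibody hashtags, so group and reaction cannot be told apart.

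Immediate early genes are transcribed within minutes of a stimulus such as a growth factor, calcium entry or stress, without new protein synthesis. Kinase cascades act on factors already bound at their promoters, chiefly SRF with its ternary complex partners at CArG boxes and CREB at cyclic AMP response elements. Fos, Fosb, Jun and Junb encode subunits of the AP-1 dimer, Egr1, Egr2 and Egr3 encode zinc-finger factors, and Atf3 encodes a stress-induced bZIP factor. Ier2 encodes a nuclear regulator, and Btg2 encodes an antiproliferative cofactor that binds the CCR4-NOT deadenylase. In brain suspensions the same genes are known to be induced by warm enzymatic dissociation, in microglia among other cells.

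Per GENCODE vM21 on GRCm38, the AP-1 genes lay at chr12:85473890-85477273 (Fos, forward strand), chr7:19302696-19310051 (Fosb, reverse), chr4:95049034-95052222 (Jun, reverse) and chr8:84974484-84978718 (Junb, reverse). Ier2 lay on the same chromosome as Junb at chr8:84661331-84662852 (reverse). Egr1 was annotated at chr18:34859823-34864984 and Egr3 at chr14:70077203-70082614, both on the forward strand. Jun and Ier2 were annotated with 1 exon, and the other 8 genes with up to 5 exons. All 10 were annotated as protein-coding.

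The matrix held 844265 barcodes, of which 18390 passed the cell filters and 18051 remained after removal of predicted doublets. These were 5818 cells of young and 2394 of old WT mice and 6462 cells of young and 3377 of old KO mice, with median depths between 5024.5 and 7393 unique molecular identifiers (UMIs) per cell. Only 30 barcodes were found in more than 1 library. Cells were grouped into 30 clusters without the 10 genes, 38 other primary-response genes or 11 heat shock genes, and 25 clusters were named from fixed markers. The grouping still rested on other genes of the same cells. The sums of microglia-like cells, which the CD45 gate should have removed, held all 8 microglia markers at 26172 to 33956 CPM in total. They held no UMI of the 4 lymphocyte markers. They also held border macrophage markers at 45.8 to 638 CPM and neuroblast markers at up to 476 CPM, whose part was not tested. A hashtag marked the mouse and tissue of 5813 cells. All levels are CPM, the UMIs of a gene per 1000000 UMIs of summed cells. They come from 3′ ends and are compared between cells, not between genes.

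The promoter windows shown here are those of 4 genes whose levels the results turn on, and they span the 250 bases before the annotated start. They were copied from RefSeq on GRCm38.p6, where 7 of the 10 genes had a window, and are written 5′ to 3′ on the gene's strand. Capitals mark TGACG or TGACGTCA (the core and the full cyclic AMP response element, the core being contained in the full one), the CArG box of SRF and TATAAA, each searched on both strands.
Fos, chr12:85473640-85473889, forward strand: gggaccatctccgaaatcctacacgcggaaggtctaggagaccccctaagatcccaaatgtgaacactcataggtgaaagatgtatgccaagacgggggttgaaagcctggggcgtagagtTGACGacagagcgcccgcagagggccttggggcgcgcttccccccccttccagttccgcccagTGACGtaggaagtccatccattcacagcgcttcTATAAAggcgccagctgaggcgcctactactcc
Egr2, chr10:67537619-67537868, forward strand: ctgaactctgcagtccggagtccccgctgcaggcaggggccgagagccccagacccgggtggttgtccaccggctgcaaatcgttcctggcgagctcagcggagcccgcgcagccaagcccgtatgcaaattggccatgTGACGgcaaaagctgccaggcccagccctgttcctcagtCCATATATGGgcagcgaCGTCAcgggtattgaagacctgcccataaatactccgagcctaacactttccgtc
Btg2, chr1:134079156-134079405, reverse strand: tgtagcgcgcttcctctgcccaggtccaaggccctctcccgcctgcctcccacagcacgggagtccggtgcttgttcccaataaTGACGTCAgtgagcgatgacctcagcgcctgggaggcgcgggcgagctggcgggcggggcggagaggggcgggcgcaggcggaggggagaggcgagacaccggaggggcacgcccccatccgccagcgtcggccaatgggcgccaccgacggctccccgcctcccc
Atf3, chr1:191183334-191183583, reverse strand: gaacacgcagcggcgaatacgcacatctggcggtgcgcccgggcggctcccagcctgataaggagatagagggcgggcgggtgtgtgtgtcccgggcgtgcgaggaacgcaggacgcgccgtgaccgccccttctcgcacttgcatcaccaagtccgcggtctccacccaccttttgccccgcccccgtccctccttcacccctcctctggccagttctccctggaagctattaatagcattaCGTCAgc

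The Fos window held TGACG at 129 to 125 and at 66 to 62 bases before the start, with TATAAA at 33 to 28. The Egr2 window, 1 of 5 listed for that gene, held TGACG at 111 to 107 and 55 to 51 bases and a CArG box at 72 to 63. The Btg2 window held the full TGACGTCA at 166 to 159 bases, and the Atf3 window held TGACG at 7 to 3 bases. Of the 7 genes with a window, 6 held TGACG (all but Jun), against 19.8% of 27025 genes. The full TGACGTCA was found in 1 of 7 (1.77% of genes), the CArG box in 1 of 7 (1.62%) and TATAAA in 1 of 7 (14.3%). The AP-1 element TGANTCA was found in 0 of 7 windows, against 7.82% of genes. GGGCGG, also searched, was found in 6 of 7 (35.4% of genes) and TTCCGG in 1 of 7 (13.6%). The windows of the 7 genes held 54.0 to 73.2% G and C, against a median of 52.4% over all windows. The part of this base content in the motif counts was not tested. These are matches of letters, not bound sites.

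The summed level of the 10 genes differed most between cell classes. Microglia-like cells stood at 37860 CPM in young and 40574 in old WT mice, and at 35419 in young and 41367 in old KO mice. All 4 libraries lay above every library of every other class. The 328 microglia-like cells made up 1.85% of the named cells and held 15.1% of all member UMIs. Endothelial-like cells followed with 9661 to 16100 CPM in the 3 libraries with at least 20 such cells. Olfactory ensheathing glia (OEG)-like cells, the glia that wrap olfactory axons, stood at 7466 to 8532 CPM and held 29.8% of member UMIs with 11.4% of the cells. Activated NSC-like cells spanned 2976 to 8277 CPM, a range that overlapped with that of the OEG-like cells. Astroglia-like cells, in which quiescent NSCs and astrocytes were not separated, stood at 1741 to 2900 CPM and neuroblast-like cells at 1373 to 1815 CPM, so these neighbours overlapped. Neuron-like (856 to 2131 CPM), oligodendrocyte-like (890 and 1203 CPM, 2 libraries) and dividing transit-amplifying progenitor (TAP)-like cells (791 to 1035 CPM) overlapped with each other. The neuron-like range, highest in WT old, also overlapped with those of the astroglia-like and neuroblast-like cells. Oligodendrocyte-like and dividing TAP-like cells lay below the astroglia-like and neuroblast-like ranges. Oligodendrocyte precursor (OPC)-like cells had enough cells in KO old alone, at 3920 CPM.

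**Figure D1:**
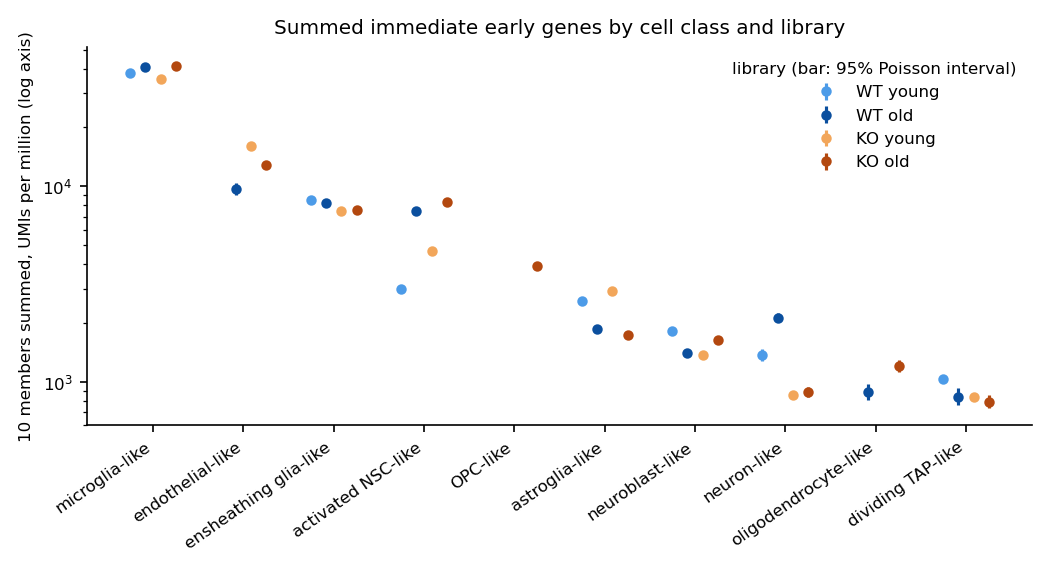
Summed level of the 10 immediate early genes (y axis, CPM, log scale) in each cell class (x axis), 1 point per library in which the class had at least 20 cells, with exact 95% Poisson intervals for counting error where wider than the point. The 4 microglia-like points lie between 35419 and 41367, above every other class, and the dividing TAP-like points lie between 791 and 1035.

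Near-empty barcodes, with 5 to under 100 UMIs, give the level of free RNA. Their summed level was 2603 and 2361 CPM in the young and old WT libraries and 2184 and 2087 CPM in the young and old KO libraries, which is within the range of the astroglia-like cells. For Atf3 the near-empty barcodes held 39.6 to 80.0 CPM, while astroglia-like cells held 0.77 to 6.87 CPM, below that level in every library. Astroglia-like cells were also below it for Egr1 (135 to 232 against 428 to 597 CPM) and Ier2 (18.2 to 54.4 against 82.4 to 235 CPM). The same held for Egr2 (1.63 to 6.67 against 9.90 to 21.8 CPM) and Egr3 (1.11 to 6.13 against 31.7 to 46.0 CPM). For the remaining genes the ranges overlapped or the astroglia-like cells were higher. Neuroblast-like cells held 22.99 to 49.2 CPM of Egr3 and 128 to 203 CPM of Ier2, overlapping with these near-empty ranges. Their Egr1, at 223 to 356 CPM, lay below the near-empty range. Dividing TAP-like cells held 60.3 to 148 CPM of Ier2, overlapping with the near-empty range of that gene. The KO young values rested on 10028 near-empty barcodes, against 77776 to 80707 in the other libraries. The part of free RNA in the levels of any class was not tested.

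Tissue differed between the classes. By hashtag, 5.50% of the called microglia-like cells came from the vSVZ, and 99.7% of these cells had a call. Astroglia-like cells of the RoB alone had 1132 to 3396 CPM in the 8 mice, while the microglia-like cells of the 6 mice with at least 20 of them had 33939 to 40703 CPM. These ranges did not overlap.

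The 4 AP-1 genes shared the order of classes at the top. Fos stood at 6972, 9677, 8082 and 8938 CPM in microglia-like cells (WT young, WT old, KO young, KO old), and at 1171, 770, 1302 and 774 CPM in astroglia-like cells of the same libraries. Jun stood at 11969, 9607, 9929 and 10183 CPM against 608, 446, 681 and 376 CPM. In both genes the lowest microglia-like library was above the highest astroglia-like one. After each cell was thinned to 1000 UMIs, Fos was found in 86.0 to 95.3% of microglia-like cells, 16.8 to 28.8% of astroglia-like cells and 6.25 to 14.2% of dividing TAP-like cells. Junb ran from 4628 to 5754 CPM in microglia-like cells, 835 to 918 in OEG-like, 171 to 254 in astroglia-like and 18.5 to 23.8 in dividing TAP-like cells. Fosb followed the same order, with 585 to 896, 140 to 223, 25.6 to 46.3 and 0 to 8.09 CPM.

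Among the Egr genes, Egr1 stood at 3749 to 4888 CPM in microglia-like, 533 to 1715 in activated NSC-like and 135 to 232 in astroglia-like cells. Egr2, known for its role in myelinating glia, stood at 133 to 211 CPM in microglia-like and 35.1 to 72.0 CPM in OEG-like cells, but at 1.63 to 6.67 CPM in astroglia-like cells. Egr3 ran differently at the low end. It stood at 22.99 to 49.2 CPM in neuroblast-like and 36.6 to 123 CPM in neuron-like cells, above the 1.11 to 6.13 CPM of astroglia-like cells in every library.

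Atf3 differed most between classes. It stood at 4086, 4823, 3842 and 4758 CPM in microglia-like cells (WT young, WT old, KO young, KO old) and was found in 68.5 to 81.4% of these cells after thinning. Endothelial-like cells held 297 to 551 CPM, OEG-like cells 14.99 to 32.6 CPM, and astroglia-like, neuroblast-like and dividing TAP-like cells at most 7.33 CPM. Ier2 stood at 1277 to 1689 CPM in microglia-like and 1221 to 1407 CPM in endothelial-like cells, ranges that overlapped. Btg2 stood at 2897 to 4137 CPM in microglia-like, 459 to 1018 in activated NSC-like, 234 to 324 in astroglia-like and 41.6 to 52.2 in neuroblast-like cells.

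**Figure D2:**
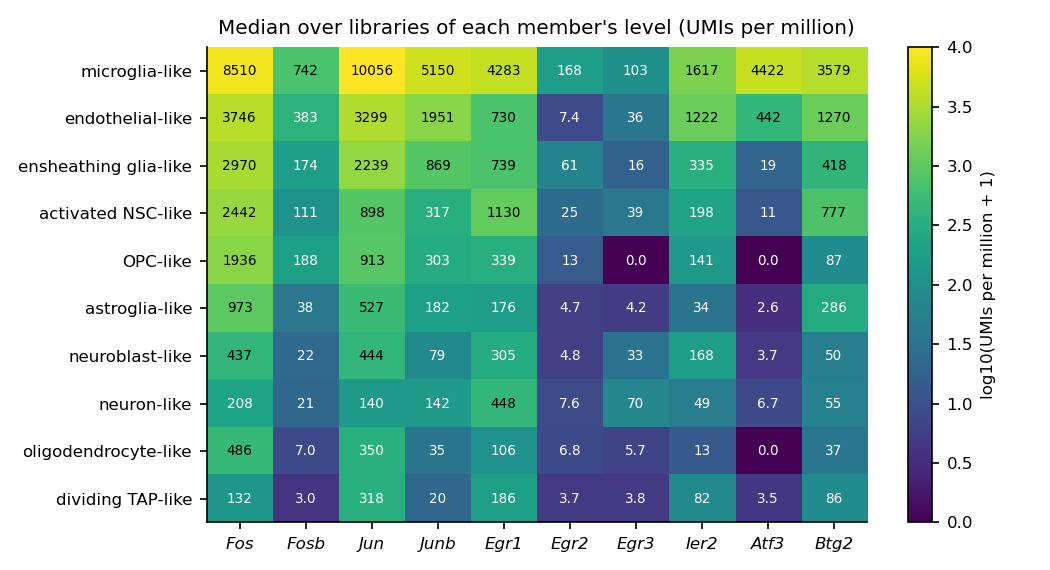
Median over libraries of each gene's level (numbers, CPM; colour, log10 of that value plus 1) by gene (columns) and cell class (rows), to be compared down a column. The microglia-like row is the highest in every column, and Atf3 falls from 4422 there to 2.6 in astroglia-like cells.

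Each class was compared with the astroglia-like cells of the same library, on UMI sums with the library as a block (edgeR quasi-likelihood test, 14351 genes, adjusted p below 0.05). The 6 comparisons share the astroglia-like sums. All 10 genes were higher in microglia-like cells, where 25.6% of all genes tested were called higher. The differences ran from 3.05 ± 0.27 on the log2 scale for Fos (± SE, adjusted p = 2.0e-12) to 10.25 ± 0.36 for Atf3 (adjusted p = 2.3e-24). Between them lay Ier2 at 5.47 ± 0.30, Egr2 at 5.33 ± 0.37, Junb at 4.68 ± 0.27, Egr3 at 4.65 ± 0.42, Egr1 at 4.53 ± 0.31, Jun at 4.29 ± 0.20, Fosb at 4.28 ± 0.20 and Btg2 at 3.61 ± 0.25. The median difference was 4.59 over the 10 genes and -0.29 over all genes.

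All 10 genes were also higher in OEG-like cells (27.9% of all genes), with a median of 2.22 against -0.01 over all genes. Egr2 differed most, by 3.83 ± 0.32 (adjusted p = 4.2e-13), and Btg2 least, by 0.72 ± 0.23 (adjusted p = 0.0078). The others were Ier2 (3.42 ± 0.27), Atf3 (2.56 ± 0.35), Fosb (2.33 ± 0.18), Junb (2.22 ± 0.24), Jun (2.21 ± 0.19), Egr1 (2.13 ± 0.28), Egr3 (2.13 ± 0.37) and Fos (1.65 ± 0.26). Like microglia-like cells, OEG-like cells came mostly from the RoB (0.389 to 3.16% of called cells from the vSVZ in its 3 clusters), and the astroglia-like sums mostly from the vSVZ. In endothelial-like cells 9 genes were higher (14.0% of all genes), led by Atf3 at 6.63 ± 0.41 and Ier2 at 5.01 ± 0.32. Egr3 (3.71 ± 0.77), Junb (2.95 ± 0.27), Fosb (2.74 ± 0.37), Jun (2.31 ± 0.20), Egr1 (1.99 ± 0.33), Btg2 (1.83 ± 0.27) and Fos (1.55 ± 0.28) followed. The exception was Egr2 (1.51 ± 1.26, adjusted p = 0.41), which had no UMI in the WT old library. The endothelial-like sums also held mural markers at up to 1673 CPM and erythroid markers at up to 3581 CPM, and also OEG markers at up to 2703 CPM and astroglia markers at up to 1609 CPM, whose part was not tested.

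In activated NSC-like cells, marked by Egfr and replication genes, 9 genes were higher (31.9% of all genes). Egr3 (3.12 ± 0.35), Egr1 (2.36 ± 0.28), Egr2 (2.34 ± 0.36) and Ier2 (2.32 ± 0.27) led, followed by Atf3 (1.29 ± 0.42), Fosb (1.21 ± 0.20), Btg2 (1.17 ± 0.23) and Fos (1.04 ± 0.26), and Jun was higher by 0.53 ± 0.18 (adjusted p = 0.011). Junb stood at 0.29 ± 0.24 (adjusted p = 0.29). These sums held 1734 to 1910 CPM of their own markers, 3747 to 5506 CPM of neuroblast markers and 1349 to 4579 CPM of astroglia markers, whose part was not tested. The class held a pair of unlike clusters. The Egfr-high cluster, whose leading genes included Nptx2, Prss56 and Egfr, had summed levels of 7248 and 11626 CPM in young and old WT and of 10192 and 12473 CPM in young and old KO mice. The other cluster, led by the replication genes Hells, Rrm2 and Mcm3, had 1423, 2074, 1354 and 1979 CPM. Every library of the first was above every library of the other. The fits with each cluster alone were added after these levels had been seen. With the Egfr-high cluster alone all 10 genes were higher than in astroglia-like cells (20.4% of all genes). With the replicating cluster alone 3 were higher (Egr3, Ier2 and Egr1) and 4 lower, with Junb at -1.96 ± 0.24 and Fos at -1.03 ± 0.24. In that fit 31.5% of all genes were higher and 37.0% lower, close to the shares of the 10. Pooled over libraries, the replicating cluster held 11.0 CPM of Egr3 and 286 CPM of Egr1. Near-empty barcodes held more of both (31.7 to 46.0 and 428 to 597 CPM). Ier2, at 84.6 CPM in that cluster, lay within its near-empty range of 82.4 to 235 CPM. The part of free RNA was not tested. At a coarser clustering (Leiden resolution 0.5), at which 449 of the 454 cells of the Egfr-high cluster fell outside the named classes, 4 were higher and 3 lower (32.8 and 37.5% of all genes).

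In neuroblast-like cells the list divided. Egr3 (3.05 ± 0.33), Ier2 (2.27 ± 0.27) and Egr1 (0.70 ± 0.27) were higher (38.3% of all genes), while Btg2 (-2.56 ± 0.25), Junb (-1.32 ± 0.24), Fos (-1.18 ± 0.26) and Fosb (-0.66 ± 0.21) were lower (37.4% of all genes). In dividing TAP-like cells Ier2 alone was higher, by 1.27 ± 0.28 (34.3% of all genes), and 5 genes were lower (36.8% of all genes). These were Junb (-3.20 ± 0.30), Fos (-2.75 ± 0.28), Fosb (-2.50 ± 0.33), Btg2 (-1.62 ± 0.25) and Jun (-0.74 ± 0.19). Jun (-0.21 ± 0.18), Atf3 (0.14 ± 0.41) and Egr2 (0.08 ± 0.42) in neuroblast-like cells, and Atf3 (0.23 ± 0.49), Egr1 (0.09 ± 0.28), Egr2 (-0.18 ± 0.53) and Egr3 (0.16 ± 0.51) in dividing TAP-like cells, did not pass the test. The shares of the 10 genes called in neuroblast-like cells were near those of all genes. When the astroglia-like sums left out their eYFP-rich cluster, an alternative added after the data had been seen, 5 genes were higher and 2 lower in neuroblast-like cells (38.5 and 37.0% of all genes), and 5 and 5 in dividing TAP-like cells (34.8 and 36.4%).

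**Figure D3:**
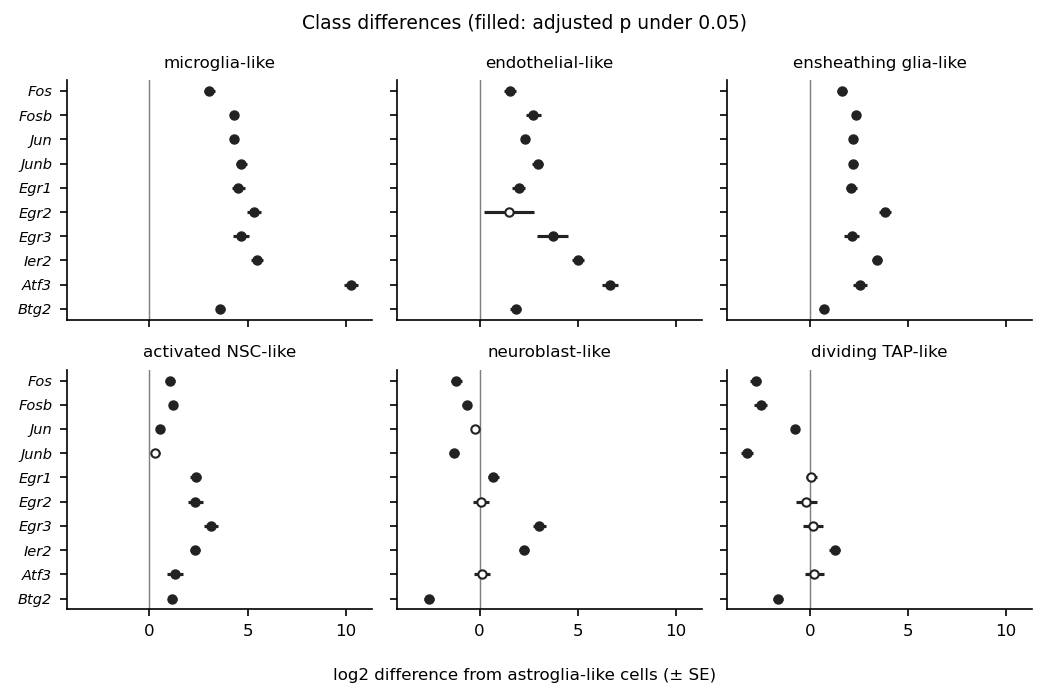
Difference of each gene from astroglia-like cells (x axis, log2 scale, ± SE) in 6 cell classes, with filled points where the adjusted p was below 0.05. All 10 points lie right of 0 in microglia-like and ensheathing glia-like cells, and Fos, Fosb, Junb and Btg2 lie left of 0 in both neuroblast-like and dividing TAP-like cells.

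Within a class the genes were spread unevenly over cells. After thinning to 1000 UMIs, 53.8 to 66.5% of astroglia-like cells had no UMI of any of the 10 genes, and the top 10% of cells held 64.7 to 78.8% of their UMIs. In microglia-like cells of the KO young and WT young libraries, those with enough cells for this measure, 4.30 and 1.34% of cells had none, and the top 10% held 21.1 and 18.8%. OEG-like cells lay between, with 41.1 to 47.3% at none and 51.5 to 57.4% in the top 10%. After thinning, both astroglia-like and OEG-like classes thus held cells with many and cells with none of these UMIs, while nearly every microglia-like cell carried the transcripts. A cell with none after thinning need not be silent. Before thinning, the median cell held 2 to 3 UMIs of the 10 genes in astroglia-like and 5 to 7 in OEG-like cells. The summed level of single astroglia-like clusters ran from 608 to 6758 CPM, so part of the spread lay between clusters.

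The genes were found together to a different degree in different classes. In OEG-like cells Fos was found in 74.5 to 78.7% of cells with a Jun UMI and in 11.7 to 14.0% of cells without. In activated NSC-like cells the shares were 53.4 to 83.1% and 24.1 to 43.9%, in astroglia-like cells 44.1 to 59.1% and 10.6 to 16.9% and in neuroblast-like cells 23.3 to 35.4% and 17.8 to 22.6%. Over cells of 1 library and pairs of genes, the median Spearman's rho was 0.45 in OEG-like, 0.35 in astroglia-like, 0.35 in activated NSC-like, 0.33 in microglia-like, 0.11 in neuroblast-like and 0.05 in dividing TAP-like cells. These values are descriptions of thinned, sparse counts of cells that share a library.

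Across the 34 sums of class and library, Fos and Jun followed each other with rho = 0.94 and Fosb and Junb with rho = 0.96, while Egr3 was least like Jun (rho = 0.29). Among 7208 other genes, the 5 whose level followed the summed list most closely were Hexim1 (rho = 0.93), which encodes an inhibitor of the elongation factor P-TEFb, Ppp1r15a (0.92), a stress-induced phosphatase subunit, Sertad1 (0.91), Hfe (0.90) and Gm26802 (0.90). The sums share classes and libraries, so these are descriptions.

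The lists of related genes moved with the 10 in some classes and apart in others. Of 38 other primary-response genes, 36 were tested. In microglia-like cells 29 were higher and 1 lower (median 3.88), among them the kinase Sgk1 (9.27 ± 0.20), the NF-kappaB regulators Nfkbiz (6.70 ± 0.15) and Nfkbia (5.68 ± 0.14), Ier5 (5.51 ± 0.14) and Cebpb (4.39 ± 0.12). In endothelial-like cells 25 were higher and 0 lower, and in OEG-like cells 24 and 3, led by Ppp1r15a (2.95 ± 0.14) and Ier3 (5.11 ± 0.25). In activated NSC-like cells 14 were higher and 11 lower. In neuroblast-like cells 9 were higher and 18 lower, and in dividing TAP-like cells 10 and 20. Ccn1 was lower by -7.14 ± 0.28 and -6.48 ± 0.32 respectively. Of all 14351 genes, 25.6% were higher in microglia-like, 14.0% in endothelial-like, 27.9% in OEG-like and 31.9% in activated NSC-like cells. In either direction 8034, 4698, 7657 and 9325 genes were called in these classes. In neuroblast-like cells 38.3% of all genes were higher and 37.4% lower, and in dividing TAP-like cells 34.3 and 36.8%.

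Of the 11 heat shock genes, 8 were higher and 2 lower in microglia-like cells, with the inducible chaperones Hspa1a at 5.88 ± 0.30, Hspa1b at 5.77 ± 0.22 and the cochaperone Dnajb1 at 4.44 ± 0.17. In OEG-like cells 7 were higher and 0 lower (Hspa1b 4.18 ± 0.18, Dnajb1 2.97 ± 0.14). In dividing TAP-like cells, where most AP-1 genes were low, 6 heat shock genes were higher and 3 lower (Hsp90aa1 2.31 ± 0.13, Bag3 -3.51 ± 0.31). Hspa1a and Hspa1b are near-identical copies between which reads can be split. Of 16 upstream factors and kinases, 9 were higher and 1 lower in microglia-like cells, and in neuroblast-like cells 8 were higher and 2 lower. The counts of both lists are to be read against the shares of all genes given above. The p38 kinase gene Mapk14 (2.86 ± 0.20 in microglia-like cells) and Creb1 (1.73 ± 0.08 in neuroblast-like cells) are named after their values were seen.

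The effects of age and of the receptors were compared in vSVZ astroglia-like cells, with 1 sum per mouse and 2 mice per group. WT young mice had a chase of 6 weeks and the other groups 9 weeks, which cannot be told apart from age in WT or genotype in young mice. In WT the summed list stood at 3862 and 4324 CPM in young mice against 1728 and 2743 CPM in old mice, so both old mice were lower. In KO it stood at 1925 and 5243 CPM in young mice, the widest gap between mice of a group, and at 1946 and 1816 CPM in old mice. Fos stood at 1863 and 1950 CPM (WT young), 685 and 1085 CPM (WT old), 892 and 2323 CPM (KO young) and 859 and 801 CPM (KO old). Jun stood at 899 and 844 CPM (WT young), 442 and 554 CPM (WT old), 468 and 1080 CPM (KO young) and 391 and 372 CPM (KO old). For both genes the old mice were below the young mice within each genotype. KO young mouse 1 was close to the old mice, and KO young mouse 2 was above all other mice.

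**Figure D4:**
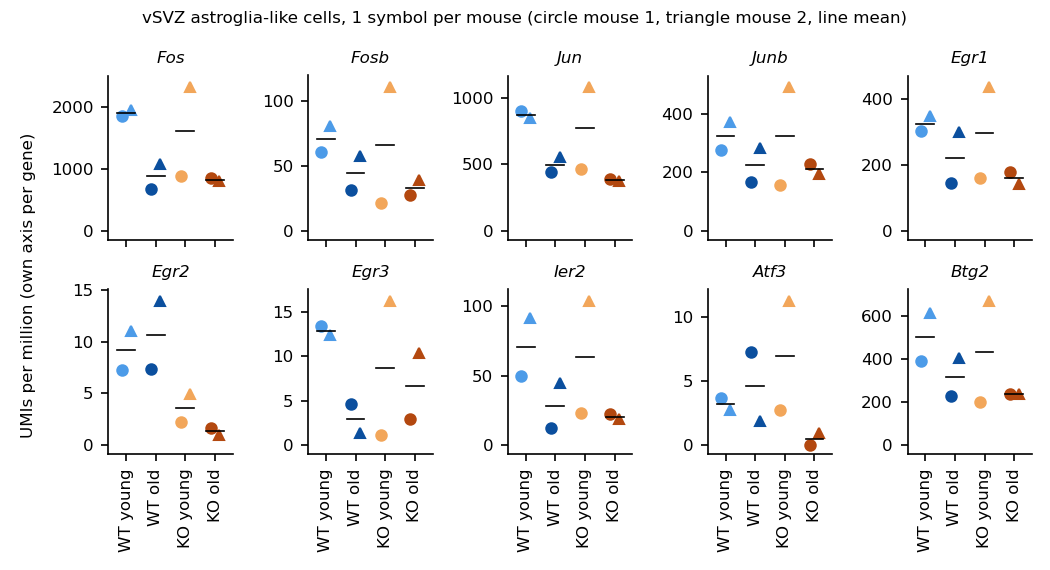
Level of each gene in vSVZ astroglia-like cells (y axis, CPM, a separate scale for each gene) in the 2 mice of each group (circle, mouse 1; triangle, mouse 2; line, mean). For Fos the WT young mice stand at 1863 and 1950 and the WT old mice at 685 and 1085, and the KO young mice lie far apart at 892 and 2323.

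In WT mice 3 genes were lower with age (edgeR, 10433 genes tested, 8.35% called lower). These were Fos (-1.08 ± 0.22, adjusted p = 0.00067), Jun (-0.78 ± 0.19, adjusted p = 0.0040) and Egr3 (-2.31 ± 0.81, adjusted p = 0.048), the last from 29 UMIs in the young and 8 in the old mice. Ier2 stood at -1.20 ± 0.42 (adjusted p = 0.051) and Btg2 at -0.65 ± 0.28 (adjusted p = 0.12). Fosb (-0.60 ± 0.39), Egr1 (-0.48 ± 0.26), Junb (-0.48 ± 0.27), Egr2 (0.25 ± 0.48) and Atf3 (0.31 ± 0.89) did not pass the test either. The median was -0.62 over the 10 genes and 0.03 over all genes. Fewer genes were called without either WT young mouse, and more without WT old mouse 2 or without either KO young mouse. Each of these fits leaves a lone mouse in 1 group. DESeq2 called none of the 10, and 736 of all 10433 genes.

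In KO mice 5 genes were lower with age (2.32% of all genes): Jun (-0.998 ± 0.18, adjusted p = 0.00095), Fos (-0.93 ± 0.21, adjusted p = 0.0078), Atf3 (-3.81 ± 0.92, adjusted p = 0.012), Ier2 (-1.64 ± 0.40, adjusted p = 0.013) and Egr1 (-0.87 ± 0.25, adjusted p = 0.039). Egr2 (-1.40 ± 0.72), Fosb (-1.01 ± 0.36), Btg2 (-0.86 ± 0.27), Junb (-0.61 ± 0.25) and Egr3 (-0.47 ± 0.59) did not pass the test. Ier2 stood at 22.9 and 104 CPM in the young and 22.03 and 18.9 CPM in the old mice. Atf3 rested on 5 and 25 UMIs in the young and 0 and 2 UMIs in the old mice, a ratio of 16.8 with an exact 95% counting interval from 4.26 to 145. The median was -0.96 over the 10 genes and 0.00 over all genes. The calls were lost without KO young mouse 2 (Fos -0.09 ± 0.14, Jun -0.28 ± 0.12). More genes were called without KO young mouse 1, and fewer without either KO old mouse. DESeq2 called none of the 10, and 124 of all 10433 genes.

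Between genotypes, 1 gene was called in old mice (0.105% of all genes called lower). The KO old mice were also older than the WT old mice (92 to 105 against 80 weeks), which cannot be told apart from genotype. Egr2 was lower in KO old by -3.00 ± 0.60 (adjusted p = 0.022), with 8 and 30 UMIs in WT old (7.31 and 13.9 CPM) and 4 and 2 UMIs in KO old (1.66 and 0.94 CPM). The other 9 stood between -2.89 ± 1.10 (Atf3) and 1.39 ± 0.82 (Egr3). The Egr2 call was lost with DESeq2 (adjusted p = 0.37), without WT old mouse 2 (adjusted p = 0.53), and without either KO old mouse (0.060 and 0.26) or either WT young mouse (0.058 and 0.063). In young mice edgeR called 0 of 10 (3.0% of all genes called in either direction), and DESeq2 0 of 10 (175 of 10433 genes). At an unadjusted p below 0.05 edgeR gave 1, against 1629 of 10433 genes. The 10 stood between -1.34 ± 0.56 (Egr2) and 1.24 ± 0.76 (Atf3), with Fos at -0.22 ± 0.21. The count of 0 in young mice rested on 1 mouse: without KO young mouse 2, Fos stood at -1.08 ± 0.14 and Jun at -0.87 ± 0.12. The lone KO young mouse is then assumed to vary like the other groups. The difference between the age changes of the genotypes was called for 0 of 10 genes by edgeR (1.44% of all genes). DESeq2 called 0 as well (101 of 10433 genes). At an unadjusted p below 0.05 edgeR gave 1, against 1434 of 10433 genes. Without KO young mouse 2 the count changed. The values of this difference ran from -4.12 ± 1.33 (Atf3) to 1.84 ± 1.02 (Egr3).

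In vSVZ astroglia-like cells the mice of a group differed more for these genes than for most. The standard deviation between mice of a group (log2 scale) had a median of 0.69 over the 10 genes and 0.22 over all genes in vSVZ astroglia-like cells. It ran from 0.44 for Jun, above 85.9% of genes, to 1.25 for Egr3, above 99.97%. In microglia-like cells the medians ran the other way, at 0.24 over the 10 genes and 0.33 over all genes. KO young mouse 2 exceeded mouse 1 by 2.28 times (Egr2) to 14.9 times (Egr3) in the vSVZ, with all 10 genes in that direction and the summed list at a ratio of 2.72. In the RoB the order of the same mice turned, with 1132 CPM in mouse 2 and 2836 CPM in mouse 1. Median depth (8046 and 8100 UMIs) and mitochondrial share (2.70 and 2.65%) of their vSVZ cells were close.

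The share of 1 cluster differed between young and old mice. It was the astroglia-like cluster richest in eYFP (50.7% of its 996 cells with an eYFP UMI), led by Prss56, Crym, Thbs4, Mlc1 and Ecel1. Of vSVZ astroglia-like cells in WT it made up 45.2 and 51.0% in young mice and 22.4 and 10.5% in old mice, and in KO 36.8 and 37.8% against 15.8 and 16.3%. Every old mouse had a smaller share than every young mouse. Within groups the share did not always follow the summed level. The KO young mice had close shares but 1925 and 5243 CPM. WT old mouse 1 had the larger share and the lower level (1728 against 2743 CPM), as had KO old mouse 2 (1816 against 1946 CPM). In WT young mice the larger share went with the higher level. The summed list was higher inside this cluster than in the other astroglia-like clusters of the same mouse in 8 of 8 mice, by 2.06 to 6.88 times. Inside, it stood at 7025 and 7106 CPM (WT young), 4686 and 11493 CPM (WT old), 2913 and 9188 CPM (KO young) and 4823 and 5807 CPM (KO old). Outside, it stood at 1232 and 1430 CPM (WT young), 923 and 1670 CPM (WT old), 1417 and 3031 CPM (KO young) and 1412 and 928 CPM (KO old). Inside the cluster the WT old mice lay on either side of the WT young mice.

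**Figure D5:**
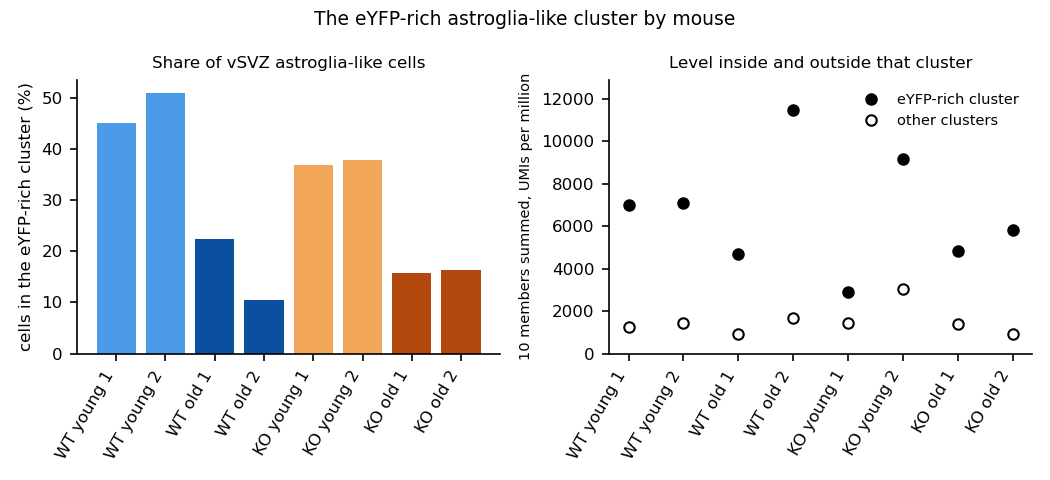
Left, share of vSVZ astroglia-like cells in the eYFP-rich cluster (y axis, %) for each of 8 mice. Right, summed level of the 10 genes (y axis, CPM) inside that cluster (filled) and in the other astroglia-like clusters (open) of the same mice. Bars of old mice are all below those of young mice, and each filled point is above the open point of its mouse.

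Without the eYFP-rich cluster none of the 7 genes tested was called for age in WT, and Fos stood at -0.05 ± 0.23 and Jun at -0.31 ± 0.18. Calls over all genes were also fewer, with 2.79% of 9417 genes lower. In KO mice 4 of the 7 were lower without it (1.05% of all genes), Jun (-1.16 ± 0.16), Fos (-0.99 ± 0.20), Ier2 (-1.98 ± 0.49) and Egr1 (-1.20 ± 0.29). The level also differed between cells with and without a hashtag call. Astroglia-like cells with a call had 3678 CPM against 1743 without (WT young), 2170 against 1323 (WT old), 3484 against 2645 (KO young) and 1882 against 1552 (KO old). The part of the mix of clusters in this difference was not tested. Cells without a call entered none of the sums per mouse. Microglia markers in these sums came to 68.7 to 98.6 CPM and border macrophage markers to at most 0.90 CPM.

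Among the other lists, 6 of 26 primary-response genes tested were lower and 1 higher with age in WT astroglia-like cells, with Jund (-0.97 ± 0.17), Zfp36 (-1.34 ± 0.33), Socs3 (-1.20 ± 0.35) and Gadd45g (-0.54 ± 0.15) lower and Trib1 (1.58 ± 0.40) higher. Of 10 heat shock genes 4 were lower, with Hsp90aa1 at -0.62 ± 0.11, Hspd1 at -0.51 ± 0.11, Hspa8 at -0.44 ± 0.12 and Hspe1 at -0.33 ± 0.10. In KO mice 3 primary-response genes were lower (Dusp1 -1.16 ± 0.22, Ppp1r15a -1.31 ± 0.25, Jund -0.71 ± 0.16). Of all 10433 genes, 8.35% were called lower with age in WT and 2.32% in KO mice.

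Between tissues, vSVZ and RoB astroglia-like cells of the same 8 mice were compared with the mouse as a block. Of the 10 genes, 7 had enough counts to be tested among 8038 genes, and 2 were higher in the vSVZ (6.18% of all genes). Egr1 was higher by 0.85 ± 0.16 (adjusted p = 0.00016) and Junb by 0.87 ± 0.14 (adjusted p = 7.7e-06). Both were higher in 7 of 8 mice, with KO young mouse 1 as the exception. Across mice Junb ran from 158 to 491 CPM in the vSVZ and from 84.2 to 193 CPM in the RoB. Fos stood at 0.46 ± 0.16 (adjusted p = 0.052; 6 of 8 mice higher), Ier2 at 0.52 ± 0.18 (0.058), Fosb at 0.52 ± 0.21 (0.10), Btg2 at 0.25 ± 0.15 (0.35) and Jun at 0.21 ± 0.13 (0.36). Without KO young mouse 1 more of the 7 were called higher. At Leiden resolution 0.5, at which 984 of the 996 cells of the eYFP-rich cluster fell outside the named classes, both calls were lost (Egr1 0.15 ± 0.17, Junb 0.31 ± 0.13), and Btg2 and Ier2 were lower in the vSVZ. That cluster made up 10.5 to 51.0% of astroglia-like cells in the vSVZ and 0 to 25.0% in the RoB.

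In microglia-like cells, 6 mice had at least 20 cells, 1 of them WT old and 1 KO old, so those lone mice are assumed to vary like the others. The summed list stood at 40323 and 37303 CPM (WT young), 40181 (WT old), 39107 and 33939 (KO young) and 40703 (KO old), with the groups overlapping or close. Egr3 was higher in the 1 WT old mouse than in the 2 WT young mice by 1.61 ± 0.44 (edgeR adjusted p = 0.019, 4546 genes tested, 0.946% of all genes called higher). The p-value takes its spread from the other groups. Egr3 stood at 30.6 and 65.7 CPM in WT young and 183 CPM in WT old, on 4, 38 and 30 UMIs. Border macrophage markers came to 0 and 162 CPM in the WT young mice and 970 CPM in the WT old mouse, and their part in this result was not tested. The call was lost with DESeq2, with doublets kept and without either WT young mouse. None of the 10 genes was called for age in KO (0.704% of all genes), genotype in young mice (0.638%), genotype in old mice (0.286%) or the interaction (0.286%) by edgeR. DESeq2 called none of them either. The other 9 genes stood between -0.46 ± 0.17 (Jun) and 0.52 ± 0.26 (Fosb) for age in WT. The 10 stood between -0.37 ± 0.44 (Egr3) and 0.64 ± 0.35 (Egr2) for age in KO, between -0.42 ± 0.16 (Btg2) and 0.94 ± 0.37 (Egr3) for genotype in young mice, and between -1.04 ± 0.50 (Egr3) and 0.56 ± 0.44 (Egr2) for genotype in old mice. The interaction ran from -1.98 ± 0.62 (Egr3) to 0.90 ± 0.53 (Egr2).

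In microglia-like cells, some of the 28 other primary-response genes tested were also higher in the 1 WT old mouse than in the WT young mice. These were the nuclear receptor Nr4a1 (2.13 ± 0.28), the AP-1 gene Fosl2 (1.65 ± 0.45) and the phosphatase gene Dusp1 (0.74 ± 0.22). Gadd45g was lower in that mouse (-1.61 ± 0.43). That mouse is the one with 970 CPM of border macrophage markers, whose part was not tested. Of 9 heat shock genes, Hspa1a (-1.65 ± 0.31), Dnajb1 (-1.18 ± 0.32) and Hspa1b (-1.44 ± 0.40) were lower. In the 1 KO old mouse Ier3 was higher (0.94 ± 0.23) and Sgk1 (-1.25 ± 0.27) and Gadd45g (-1.52 ± 0.37) were lower than in the KO young mice. In young mice Hspa1a (-1.95 ± 0.24), Dnajb1 (-0.92 ± 0.23) and Hsp90aa1 (-0.84 ± 0.22) were lower in KO than in WT, and the interaction was called for Hspa1a (2.16 ± 0.44).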

How the data were processed

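Single-cell 3′ libraries of 4 groups and their hashtag libraries were used. Per the authors, reads were counted with kallisto and bustools in a workflow that counts spliced and unspliced molecules (Scanpy 1.6.0 was used downstream), and the deposited values are raw UMI counts per barcode and hashtag counts per barcode, with no cell filter. Whether the deposited counts hold both kinds is not given in the sources used here. One further sample had no group in its labels and was not analysed here. Kept cells had 1000 to 20000 UMIs in 100 to 6000 genes, with a mitochondrial share under 10%; predicted doublets were removed (339), and clusters were made with scanpy 1.11.5 and leidenalg 0.10.2 (2000 variable genes, 50 components, 15 neighbours, resolution 1). Hashtags were called with a multinomial mixture. The 2 mice of a group were separate animals. UMIs were summed over at least 20 cells and tested with edgeR 4.0.16 (filterByExpr, TMM, quasi-likelihood, Benjamini-Hochberg over all genes), with DESeq2 1.42.0 as an alternative. The SE is the log2 difference divided by the root of F. Library totals ran from 27096070 to 78028524 UMIs. Poisson intervals cover counting error only. The 10 genes were examined in every comparison (7 passed the filter on low counts between tissues), and up to 5 genes with the lowest adjusted p under 0.05 were named from the primary-response and heat shock lists. The genes, lists and tests were chosen with earlier results of these data known.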

Additional observations from a re-analysis of the deposited data

Results flagged for a closer look

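Signal of the 10 genes was found outside the named cells. In near-empty barcodes their summed level was 2602.9 CPM (WT young), 2360.5 CPM (WT old), 2183.6 CPM (KO young) and 2086.6 CPM (KO old). In the 5 unnamed clusters it was 4019.2 CPM in cluster 19 (203 cells, led by Vtn, Ptgds and Rgs5), 3985.8 in cluster 26 (29 cells, led by Tmem212 and Ccdc153), 1784.3 in cluster 27 (24 cells, led by Snhg11 and Fst), 1738.3 in cluster 28 (24 cells, led by Apod and Cenpf) and 1350.7 in cluster 29 (23 cells, led by Igfbpl1 and Neurog2).

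Btg2 in astroglia-like cells was higher in the vSVZ than in the RoB in both WT old mice, by 77.5 CPM on average, and lower in both KO old mice, by -95.2 CPM on average. The difference between the groups was not tested.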

How the results depend on the processing

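Of 2641 values of single genes under alternatives, 2456 kept their side of the threshold, 88 passed it newly, 77 fell short of it and 20 turned. A turn of direction was counted only where the gene was called in the main fit or in the alternative. Turns of genes called in neither are among the 2456. The counts of called genes below show how the calls moved between settings. They are not set against the share of all genes called in the same fit. All 10 genes stayed higher in microglia-like cells under each alternative run. For age in WT astroglia, 3 genes became 0 with DESeq2, 0 at Leiden resolution 0.5, 0 without the eYFP-rich cluster, 8 with no filter on low counts and 1 to 7 leaving out 1 mouse. For age in KO, 5 became 0 with DESeq2, 8 with no filter and 0 to 8 leaving out 1 mouse. For genotype in old mice, 1 became 0 with DESeq2, doublets kept, Leiden 0.5, the strict hashtag call or no eYFP-rich cluster, 4 with no filter and 0 to 1 leaving out 1 mouse. Leaving out 1 mouse gave 0 to 8 for genotype in young mice (Junb 0.60 without KO young mouse 1 and -1.04 without mouse 2) and 0 to 3 for the interaction (Junb -0.71 and 0.93), which was 1 with no filter. Egr1 for age in KO stood at -1.40 and 0.035. In WT microglia the 1 call became 0 with DESeq2, doublets kept or no filter, and 0 to 1 leaving out 1 mouse. Between tissues, 2 became 1 with DESeq2, 4 with the listed genes kept in clustering, 9 with no filter, 6 with the strict hashtag call, 2 to 5 leaving out 1 mouse, and 2 lower at Leiden 0.5 (Btg2 -0.47, Ier2 -1.18).

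Against astroglia, leaving out 1 library gave 6 to 9 calls in activated NSC-like, 8 to 9 in endothelial-like, 9 to 10 in OEG-like, 10 in microglia-like, 7 in neuroblast-like and 6 in dividing TAP-like cells. The replicating activated NSC-like cluster alone gave 7 (3 higher, 4 lower; Atf3 -1.01, Btg2 -0.39, Egr2 -0.16, Fos -1.03, Fosb -0.96, Jun -0.93, Junb -1.96), and in that class Leiden 0.5 gave Fos -0.69, Fosb -0.21, Jun -0.65 and Junb -1.45. For neuroblasts, leaving the eYFP-rich cluster out of astroglia gave 7 (5 higher, 2 lower; Fosb 0.41) and Leiden 0.5 gave 8 (5 higher, 3 lower; Fosb 0.30). For TAPs each gave 10 (5 higher, 5 lower), with Egr2 at 1.42 and 1.19. The cause was not tested, beyond the loss of the eYFP-rich cluster at Leiden 0.5. Without TMM the share of called genes that were higher moved from 42.8 to 57.6% in endothelial-like cells, from 49.1 to 59.1% in activated NSC-like cells, from 50 to 30% for genotype in old astroglia, from 51.3 to 41.2% for their interaction and from 48.3 to 59.4% for genotype in young microglia. The median of all genes was -0.41 in the endothelial-like comparison. With cells thinned to 1000 UMIs class levels were 0.82 to 1.51 times those given, and with under 5% mitochondrial UMIs 0.61 to 1.86 times. Between the age and genotype groups no paired analysis was possible because they hold different animals, so that a shared hashtag number pairs none of them. Between tissues the mouse was a block, and without it Egr1 and Junb were again the 2 genes called.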
